A study of Mus musculus with 7 samples.

Results

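The collagen genes of the mouse were described from the gene annotation deposited with a single-cell RNA sequencing series of intestinal stroma. They were taken as every gene of type protein-coding whose symbol is Col, a number, the letter a and a number. This gave 44 genes out of 21700 protein-coding genes and 32286 genes in all. For each gene the longest transcript of type protein-coding, counted in exonic bases, was read for its exons, coding exons and 3' UTR. Textbook classes put 11 genes in the fibrillar class and 9 in the network class, and the other 24 were 9 fibril-associated collagens with interrupted helices (FACIT), 6 beaded filament collagens, 4 transmembrane collagens, 2 multiplexins and 3 genes called anchoring or unassigned (Col7a1, Col26a1 and Col28a1).

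The series itself holds 7 droplet libraries of 3' chemistry from C57Bl6 mice of 8 to 12 weeks that carry an Rspo3-GFP transgene, a green fluorescent reporter of the R-spondin 3 gene. GFP-positive cells that lacked the epithelial marker Epcam and the leukocyte marker CD45 were sorted, so every group shares the reporter and the gate. The groups were normal small intestine (2 samples), unirradiated control small intestine (2), small intestine after 12 Gy of radiation (2) and normal colon (1), and whether these are separate animals is not given by the labels. Expression was not analysed here: no collagen level is compared between groups, the sorted cell type was not checked against markers, and no statistical test was run.

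Collagens are secreted or membrane-bound proteins in which several chains wind around each other into a triple helix, and stromal fibroblasts are a main source of them in the intestine. Each chain carries long stretches of the repeat Gly-X-Y, in which glycine, the smallest residue, faces the helix axis and X and Y are often proline and hydroxyproline. Fibrillar collagens have a long, nearly unbroken repeat and pack into fibres, network collagens of type IV have a repeat with many interruptions and form the sheet of basement membranes, and FACIT collagens sit on the surface of fibrils. A glycine repeat has a period of 9 coding bases, and 54 bases hold 6 periods.

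The repeat can be read directly in the exons. The first 27 bases of an exon of 54 bases are printed for 7 fibrillar genes, 5' to 3' on the coding strand, because this exon class was the most common one in every fibrillar gene. For Col1a1, Col1a2, Col2a1, Col3a1 and Col5a2 it is the exon at the same place in a run of equal exon lengths shared by all of them. Capitals mark bases of in-frame glycine codons (GGN), the coordinates are those of the whole exon on GRCm38, and the sequences are from GENCODE transcripts of that build.
Col1a1 (chr11:94939904-94939957, + strand): GGTccacaaGGTttccaaGGCccccct
Col1a2 (chr6:4515481-4515534, + strand): GGCcctcaaGGTttccaaGGAcctgct
Col2a1 (chr15:97996489-97996542, - strand): GGCcctcaaGGAtttcaaGGCaatcct
Col3a1 (chr1:45325805-45325858, + strand): GGTtctcctGGAtaccaaGGTccccct
Col5a2 (chr1:45422386-45422439, - strand): GGTGGTgtgGGAcccgcaGGAcctcct
Col11a1 (chr3:114114934-114114987, + strand): GGTccaagaGGCttgctgGGAccaagg
Col27a1 (chr4:63254289-63254342, + strand): GGGcagccaGGAcctgagGGCagtcca
In all 7 exons the first codon is a whole glycine codon and a glycine codon returns after every 9 bases. Outside the fibrillar class the same frame is held by short exons, of which 4 whole exons of 27 bases are printed.
Col4a1 (chr8:11245058-11245084, - strand): GGAccaccaGGGttaccaGGAatgaag
Col4a3 (chr1:82652161-82652187, + strand): GGTcctgatGGCttgaaaGGAcaaaag
Col6a1 (chr10:76718979-76719005, - strand): GGAgaaaagGGGagccgtGGAgagaag
Col23a1 (chr11:51527868-51527894, + strand): GGGcaatcaGGAcgagatGGCtacccg

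A different frame is found in type IV genes and in Col17a1, where many exons begin inside a glycine codon. The mRNA across 3 such junctions is printed as the last 9 bases of the upstream exon followed by the first 18 bases of the exon whose coordinates are given. The junction falls after the ninth base, so the first G of the codon that starts there comes from the upstream exon and the rest of that codon from the exon named.
Col4a1 (chr8:11236052-11236087, - strand): GCcctaaaGGTttccctGGAacaccaG
Col4a3 (chr1:82666895-82666930, + strand): GCccacagGGTccaagtGGTccccctG
Col17a1 (chr19:47667694-47667720, - strand): GTccaaaaGGTgacatgGGGagtcaaG
Of 4 exons of 9 bases, which hold 1 period, 3 lay in repeats and in this frame. Col4a5 has 2 of them in a row, coding exons 42 and 43, and Col4a4 has 1, coding exon 42.
Col4a5 (chrX:141658532-141658540, + strand): GTcctccaG
Col4a5 (chrX:141664676-141664684, + strand): GTtttcaaG
Col4a4 (chr1:82465457-82465465, - strand): GCtgcagaG
Each opens with the last 2 bases of a glycine codon and closes with the first base of the next. Coding exon 29 of Col6a1, the other exon of 9 bases, lay outside the repeats.

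Collagen genes were rich in exons. The median number of exons was 48 and of coding exons 47, against 7 and 6 over all protein-coding genes. Of the 44 collagens, 38 (86.4%) had 30 coding exons or more, where 3.66% of all protein-coding genes did. The median coding length was 4615.5 bases against 1155, and the median gene spanned 114387.5 bases of the genome against 17398.5. Col10a1, the collagen of hypertrophic cartilage, was the most compact with 7105 bases, and Col25a1, a transmembrane collagen first known from brain plaques, the most extended with 468377 bases.

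The number of coding exons differed by class. Fibrillar genes had a median of 60, from 51 in Col1a1 (the first chain of type I collagen, the main fibre of most connective tissue) and Col3a1 (type III, its partner in pliable tissue) to 67 in Col5a3 and Col11a1 (minor chains that nucleate and limit fibrils). Network genes fell apart into 2 architectures. The 6 type IV genes had 45 to 53 coding exons, most in Col4a5. Col8a1, Col8a2 and Col10a1, which form hexagonal lattices, had 2 coding exons each, and the longer of these measured 1904, 1916 and 1886 bases and so carried nearly all of the coding sequence. Members of the remaining classes had a median of 39, from 13 in Col26a1 to 118 in Col7a1, the anchoring fibril collagen that ties epithelium to stroma. Col7a1 packed those 118 coding exons into 31290 bases of genome, and its longest intron was 955 bases.

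**Figure D1:**
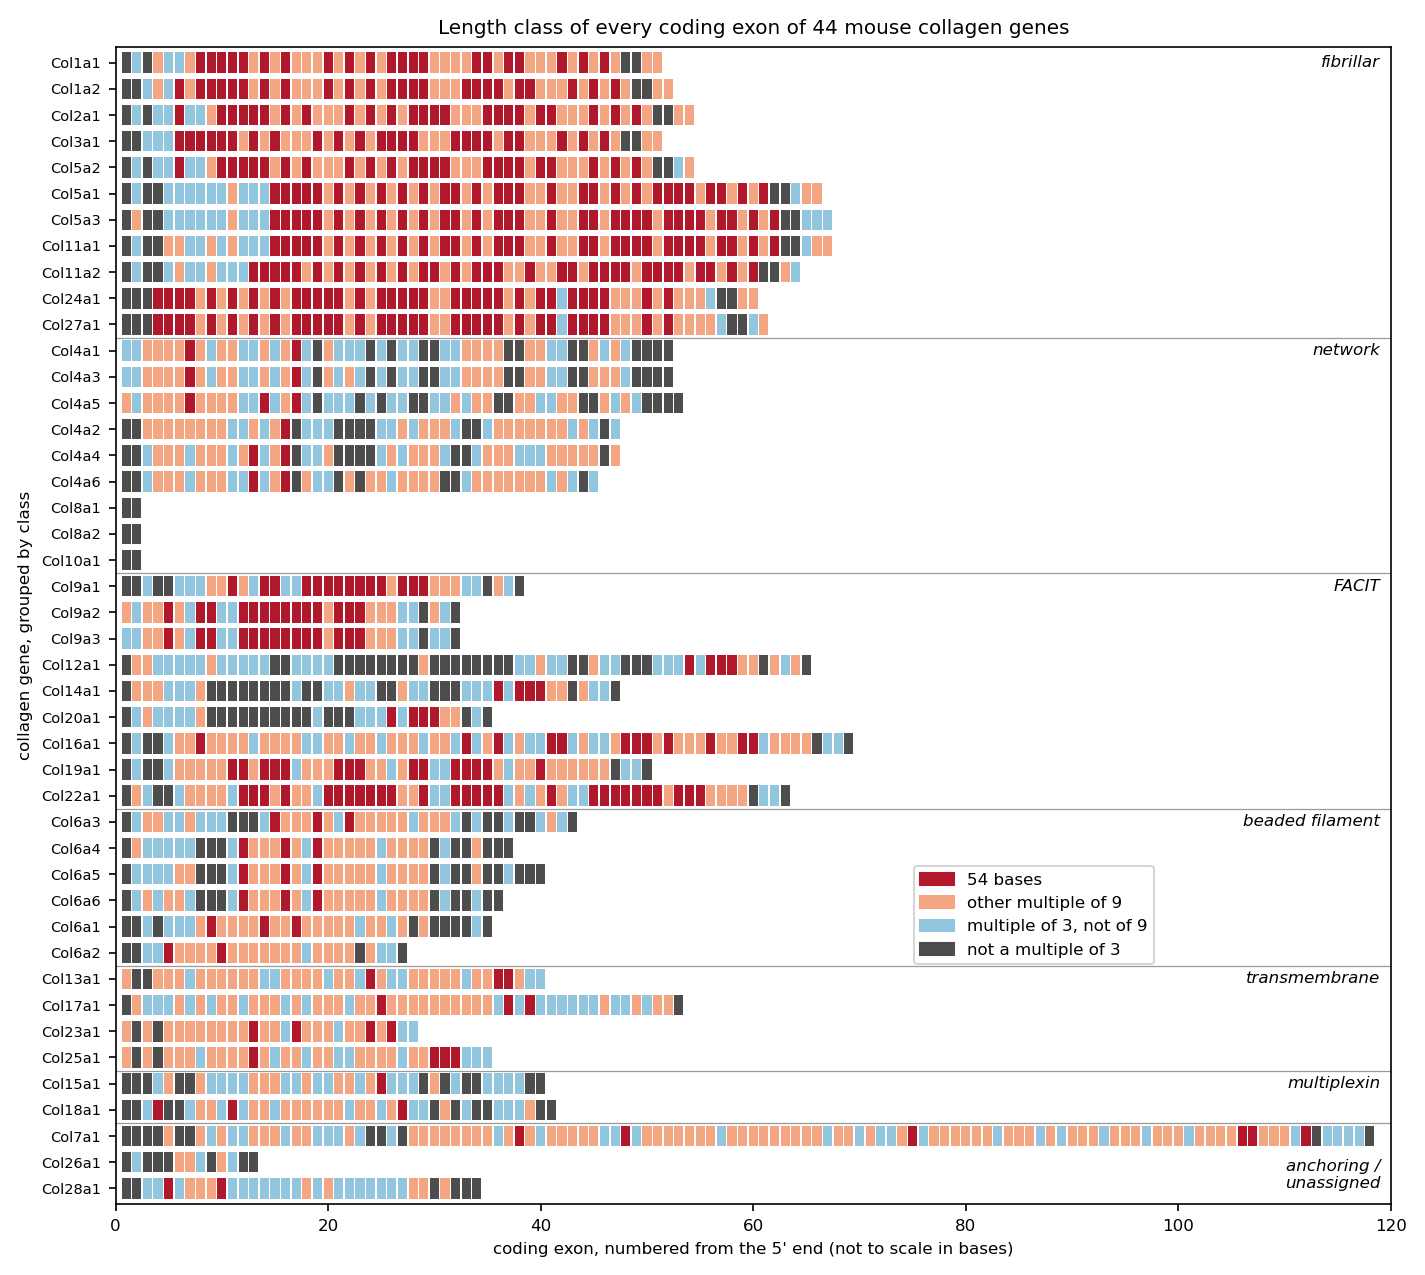
Every coding exon of the 44 collagen genes in order from the 5' end (x axis, exon number; exons are drawn at equal width), 1 gene per row grouped by class, coloured by length class. Exons of 54 bases fill most of the middle of the fibrillar rows, the type IV rows are mixed, and Col8a1, Col8a2 and Col10a1 have 2 coding exons each.

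Exon lengths were read over internal coding exons. The first and the last coding exon of a gene, whose coding lengths are bounded by the start or the stop codon, were left out. The 41 collagens with internal coding exons had 1912 of them. Of these, 1660 (86.8%) were a multiple of 3 bases long, which keeps the reading frame when an exon is skipped, against 40.7% over the 156095 internal coding exons of all protein-coding genes. A multiple of 9 was found in 1218 (63.7%, 95% Wilson interval 61.5% to 65.8%) against 14.3%. A length of exactly 54 bases was found in 469 (24.5%, 22.7% to 26.5%) against 0.725%. The background includes the collagens: without them it was 13.7% for multiples of 9 and 0.430% for 54 bases. Of the 1132 internal coding exons of 54 bases read over all protein-coding genes, 469 lay in these 41 genes.

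Fibrillar genes held the strictest pattern. Of their 625 internal exons, 525 (84.0%, interval 80.9% to 86.7%) were multiples of 9 and 305 (48.8%, 44.9% to 52.7%) were 54 bases long. The lengths 45, 54, 99, 108 and 162, which are 54, its multiples and the same less 9 bases, together made up 490 of them (78.4%), against 3.55% of all internal exons. Exons of 108 bases numbered 84, of 45 bases 70 and of 99 bases 25. By gene the share of multiples of 9 ran from 76.6% in Col5a1 to 90.0% in Col1a2, the second chain of type I, so every fibrillar gene lay above the median collagen of 65.5%. Col24a1 and Col27a1, fibrillar chains of developing bone and cartilage with a shorter helix, had the most exons of 54 bases, 33 each.

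Type IV genes held fewer multiples of 9 and far fewer exons of 54 bases than fibrillar genes, both above the background. Of the 284 internal exons of network genes, all from type IV, 134 (47.2%, interval 41.5% to 53.0%) were multiples of 9 and 12 (4.23%, 2.43% to 7.24%) were 54 bases long. The fibrillar and network intervals did not overlap in either measure. They cover counting error only, and exons of a gene family are not independent, so this is no test. The most frequent length was 45 bases with 15 exons, and no length reached a share of 6%: lengths of 36, 54, 90, 99 and 108 bases followed with 12, 12, 11, 11 and 11 exons. Col4a1, the ubiquitous basement membrane chain, had the lowest share of multiples of 9 with 40.0%, and Col4a6, a chain of smooth muscle basement membranes, the highest with 58.1%.

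Pooled, the remaining classes lay between, with 559 of 1003 internal exons (55.7%, interval 52.6% to 58.8%) multiples of 9 and 152 (15.2%, 13.1% to 17.5%) of 54 bases. The interval for multiples of 9 overlapped that of the network class. These classes were far from uniform. The multiplexins had 37.7% multiples of 9, below the network class. Outside FACIT, the highest share of 54-base exons in a class was 9.46%, in the transmembrane genes. Col23a1, a transmembrane collagen, reached 80.8% multiples of 9 with 54-base exons at 15.4%, its most common length being 27 bases (8 exons). The 4 transmembrane genes together reached 68.9%. Among FACIT genes the share of 54-base exons was 26.4%, and 3 of these genes lay within the fibrillar range of 42.9% (Col1a1) to 56.9% (Col24a1): Col9a2 and Col9a3 with 46.7% each, chains of the type IX collagen on cartilage fibrils, and Col22a1, a collagen of muscle-tendon junctions, with 45.9%. Col9a1 had 38.9%. Col12a1, a FACIT of tendon and stroma, had the lowest share of multiples of 9 of all collagens, 22.2%, and its most common length was 130 bases (7 exons). Col20a1 (24.2%) and Col26a1 (27.3%) followed, then Col14a1 and Col15a1 (28.9% each).

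Several families had a preferred length of their own. In each of the 6 type VI genes, the beaded microfilament chains of stroma, the most common length was 63 bases, with 7 or 8 exons per gene. Col7a1 had 26 exons of 36 bases, and 76 of its 116 internal exons (65.5%) were multiples of 9. Col28a1 had 15 exons of 69 bases, a multiple of 3 but not of 9, and only 31.2% of its exons were multiples of 9. In Col6a1 to Col6a6 the exons of 54 bases numbered 2 or 3 per gene.

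**Figure D2:**
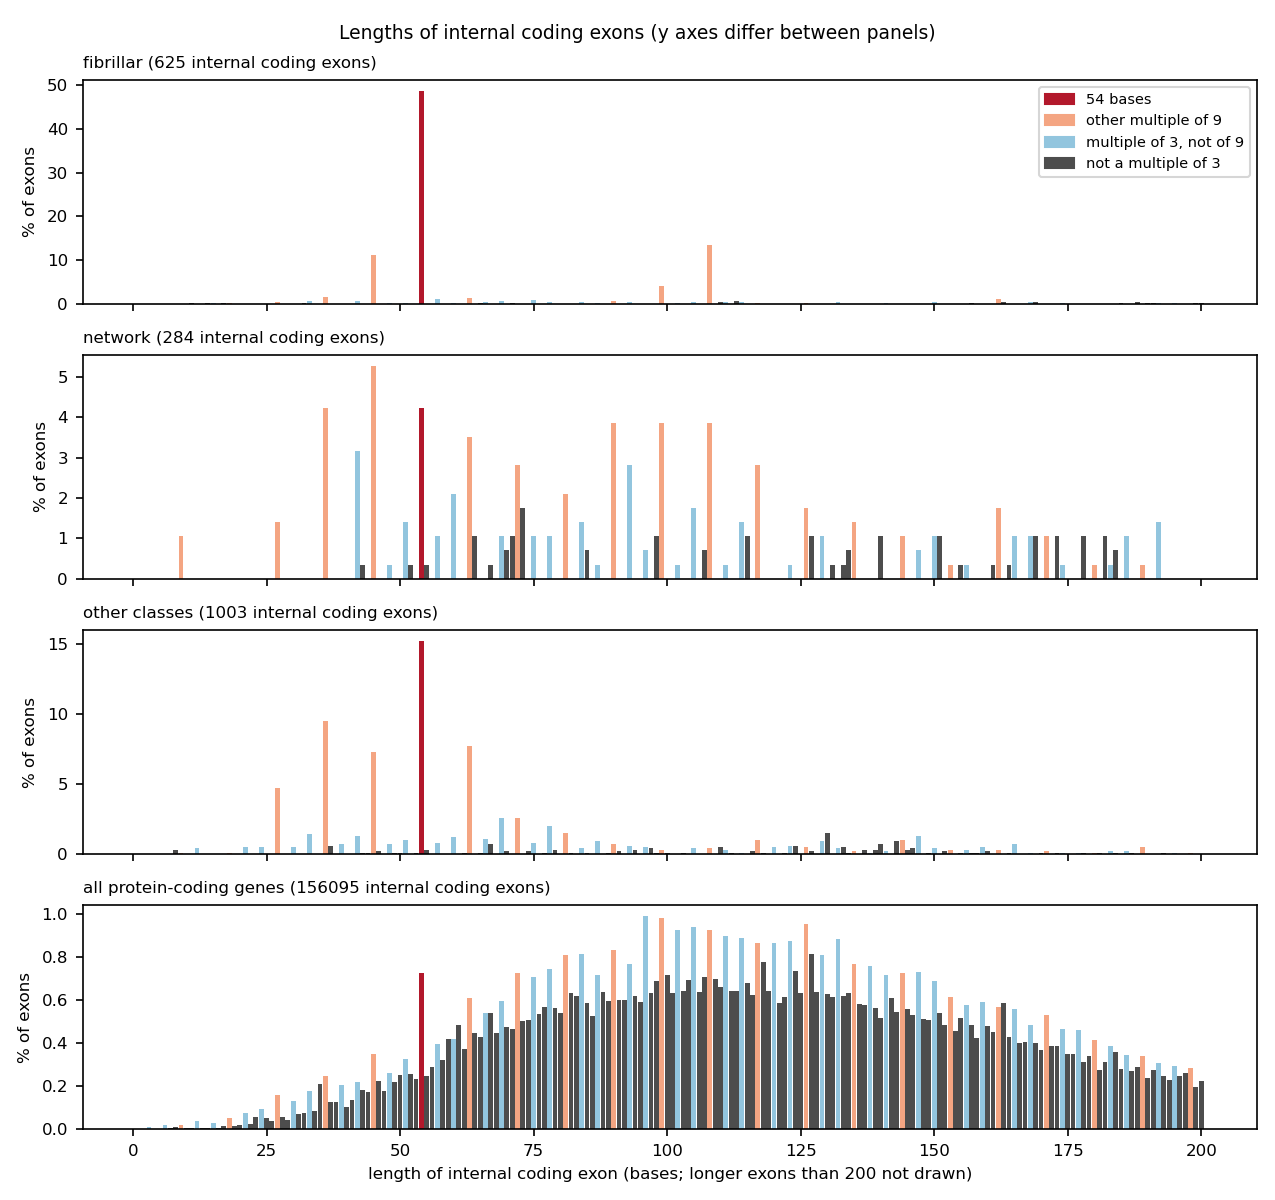
Share of internal coding exons (y axis, percent) at each length up to 200 bases (x axis) in fibrillar genes, network genes, the other collagens and all protein-coding genes, on y axes that differ. Bars at 54 bases stand at 48.8% in fibrillar genes, 4.23% in network genes, 15.2% in the other collagens and 0.725% in all genes.

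Lists of genes related to collagen were read in the same way. Of 32 genes that process or assemble collagen, such as prolyl hydroxylases and lysyl oxidases, 376 internal exons gave 12.2% multiples of 9, and Serpinh1, the collagen chaperone, was highest with 1 of 2 exons, followed by Tll1 with 26.3% and by P4hb and Plod2 with 22.2% each. Of 10 collagen receptors, 192 exons gave 13.5%, led by Lair1 with 40.0% (2 of 5 exons), Gp6 with 33.3% (2 of 6) and Mrc2 with 21.4% (6 of 28). Both shares lie near the background of 14.3%. Of 32 genes listed as collagen-like outside the family, in all but Emilin2 of which a glycine repeat was found, 148 exons gave 49.3% (interval 41.4% to 57.3%), but 5 exons of 54 bases (3.38%). C1qtnf9 (1 exon) and Otol1 (2 exons) stood at 100%, and Marco, a scavenger receptor of macrophages, and Sftpd, a lung surfactant protein, at 80.0%. Genes were placed in the lists by their known function, which includes the repeat for the last list.

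Reading the coding sequence separated repeat exons from the rest. A repeat was called where glycine codons stood at every codon triplet for at least 6 triplets, and an exon was called a repeat exon where at least 50% of its bases lay in repeats. Repeats made up 48.3% of collagen coding bases, 64.7% in fibrillar, 73.9% in network and 31.6% in the other classes, against 0.349% over the 21041 protein-coding genes with sequence. Of 1389 repeat exons, 1124 (80.9%) were multiples of 9, and of 523 other exons of the same genes 94 (18.0%) were. In fibrillar genes the contrast was 95.9% of 532 repeat exons with 16.1% of 93 others. In network genes 51.6% of 254 repeat exons were multiples of 9, so the lower share of type IV was also seen inside the repeat. The definition of a repeat uses periods of 9 bases but not exon borders.

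The length of unbroken repeat differed by class as well. In 9 of the 11 fibrillar genes the longest repeat had 337 to 344 triplets, with 338 in Col1a1, 339 in Col1a2 and 344 in Col3a1, while Col24a1 had 216 and Col27a1 217. The 6 type IV genes had 22 to 27 separate repeats each, the longest of 39 triplets in Col4a3 and 66 in Col4a2. Col7a1 had 18 repeats with 75 triplets in the longest. In the type VI genes all repeats together came to 103 to 110 triplets, and in Col12a1, whose coding sequence is 9195 bases, to 78.

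Of the 469 collagen exons of 54 bases, 452 (96.4%) carried a glycine codon at each of 6 positions in 1 frame, that is 302 of 305 in fibrillar genes, 12 of 12 in network genes and 138 of 152 in the others. Over all protein-coding genes with sequence, 452 of 1119 exons of 54 bases had this form, so 0 of them lay outside the 44 collagens. Many exon borders stood at glycine codons. Glycine opens every codon triplet of a repeat, and no background matched for repeats was counted. Of the internal exons of collagens, 1233 (64.5%) began with a whole glycine codon, against 4.22% over all genes. The share was 87.2% in fibrillar genes (545 exons), 57.1% in the other classes (573) and 40.5% in network genes (115). In phase terms, 92.6% of fibrillar internal exons began and ended between codons, with 34.2% of network exons and 34911 of 151788 exons over all genes.

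Among the collagen classes, a start inside a glycine codon was most frequent in type IV. It was found in 149 of 284 network exons (52.5%), in 17 fibrillar exons (2.72%) and in 110 of the other classes (11.0%). Over all collagens it was 14.4%, near the background of 14.1%, so only the split by class shows it. In network genes 147 of the 149 split codons were cut after the first base and 2 after the second, as in the printed junctions. Each type IV gene had 24 or 25 split starts, which is 48.0% of the internal exons of Col4a1 and 58.1% of those of Col4a6. Split starts also outnumbered whole ones in Col12a1 (14 against 8) and Col14a1 (9 against 8).

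Col17a1, the transmembrane collagen of hemidesmosomes that holds basal epithelial cells to the basement membrane, was the only one of the 41 genes without a whole glycine codon at any exon start. Of its 51 internal exons, 0 began with a whole glycine codon and 26 (51.0%) began inside one, all 26 after the first base. All 51 were multiples of 3, and 31 (60.8%) were multiples of 9. The other transmembrane genes, Col13a1, Col23a1 and Col25a1, began 84.2%, 84.6% and 84.8% of internal exons with a whole glycine codon, so Col17a1 shares its class with them but not the frame of its exons. Among collagen-like proteins outside the family, 54.1% of exons began inside a glycine codon and 10.1% with a whole one.

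**Figure D3:**
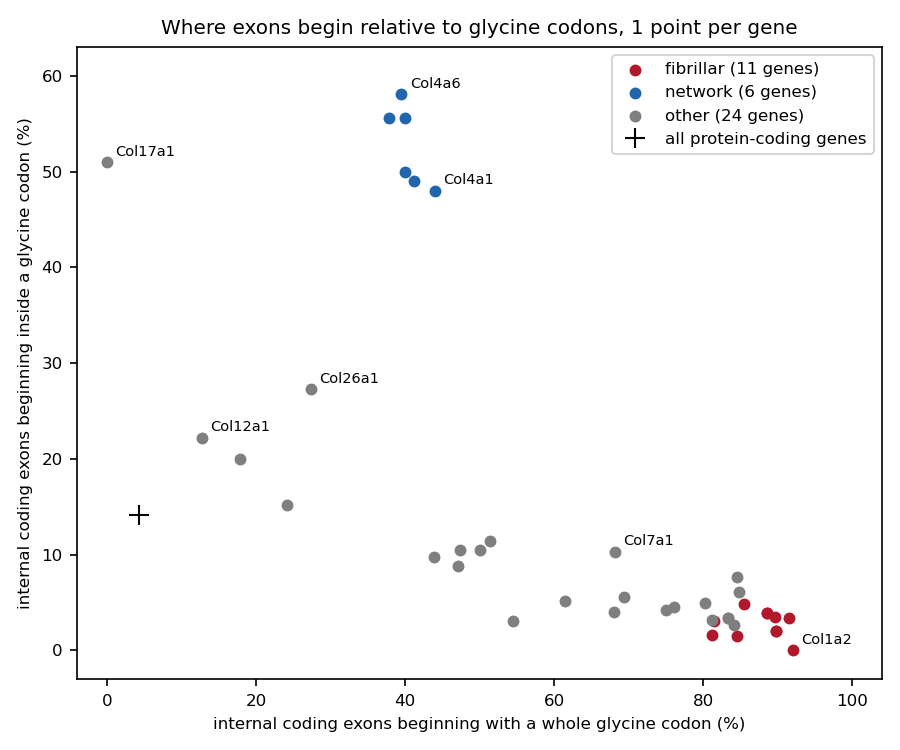
Percent of internal coding exons that begin with a whole glycine codon (x axis) against the percent that begin inside one (y axis), 1 point for each of 41 collagen genes, coloured by class; the cross is all protein-coding genes. The 6 type IV genes lie above 45% on the y axis, Col17a1 at 0% and 51.0%, and the 11 fibrillar genes at the lower right.

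Which glycine codon was used also differed between genes. Outside repeats, over all protein-coding genes, GGC was the most frequent with 32.5%, and GGT came to 17.7%. Pooled over the repeats of fibrillar genes GGT was the most frequent with 34.5%, and inside those of network and other genes GGA was, with 39.0% and 38.8%. By gene, GGT led in 5 of the 11 fibrillar genes, GGA in 4 and GGC in 1, and in Col5a2 GGT and GGA stood level at 35.3%. GGA led in 8 of 9 network genes and 21 of 24 others. GGT reached 53.8% in Col1a1 and 51.3% in Col1a2, 41.2% in Col2a1 (cartilage) and 40.6% in Col3a1. GGG was 1.41% of the 355 repeat glycine codons of Col1a1 against 23.5% outside repeats over all genes. Col27a1, also fibrillar, had 16.1% GGT and 22.5% GGG, so fibrillar genes spanned 16.1% to 53.8% GGT.

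The order of exon lengths was compared between genes as the longest run of consecutive coding exons of equal length in both. Over the 946 pairs of collagens the median run was 2 exons and the longest 53, in Col5a3 and Col11a1. Runs of 10 exons or more joined 50 pairs, all of them within 1 of the 7 classes given above: the 152 pairs of the same class had a median of 9, and the 794 pairs of different classes had at most 8. Fibrillar genes formed 3 groups. Col1a1, Col1a2, Col2a1, Col3a1 and Col5a2 shared 25 to 43 exons pair by pair. Col5a1, Col5a3, Col11a1 and Col11a2 shared 34 to 53. Col24a1 and Col27a1 shared 50. Between the first and the second group every pair shared 9 exons, between the first and the Col24a1 and Col27a1 group 9 to 11, and between the second and the Col24a1 and Col27a1 group 14. Col5a2 thus stood with the type I to III genes and not with the other type V chains, Col5a1 and Col5a3, with which it assembles.

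All 5 genes of the first group shared 1 run of 25 exons, 1647 bases in all, in which all 25 lengths were multiples of 9 and 14 were 54. The run begins with 5 exons of 54 bases, the first of which is the printed exon of Col1a1, Col1a2, Col2a1, Col3a1 and Col5a2. Col1a1 departs from the group at its coding exon 33, which is 108 bases long where Col1a2 has its exons 33 and 34 of 54 bases each. After that place Col1a1 and Col1a2 ran on for 14 further exons of equal length. Col1a1 differed in the same way from Col2a1, Col3a1 and Col5a2, again with 14 equal exons after it. In the second group Col5a1 has 108 bases in coding exon 48 where Col5a3, Col11a1 and Col11a2 have 2 exons of 54, followed by 13 equal exons in each comparison.

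Outside the fibrillar class the longest run was 22 exons, in Col6a4 and Col6a6. Among type IV genes, Col4a1, Col4a3 and Col4a5 shared 6 to 10 exons with each other, Col4a2, Col4a4 and Col4a6 shared 6 to 14, and pairs across these 2 groups shared 3 to 5. Col6a3, Col6a4, Col6a5 and Col6a6 shared 18 to 22, Col6a1 and Col6a2 shared 8, and pairs across shared 8 to 9, so these 2 genes were no closer to each other than to the other type VI genes. The type IX genes Col9a1, Col9a2 and Col9a3, which decorate cartilage fibrils, shared 19 to 21, and each of them shared 14 with Col22a1. Col12a1, Col14a1 and Col20a1 shared 10 to 15. Since lengths of 54 recur so often, a run in fibrillar genes holds fewer different lengths than a run of the same number of exons elsewhere.

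**Figure D4:**
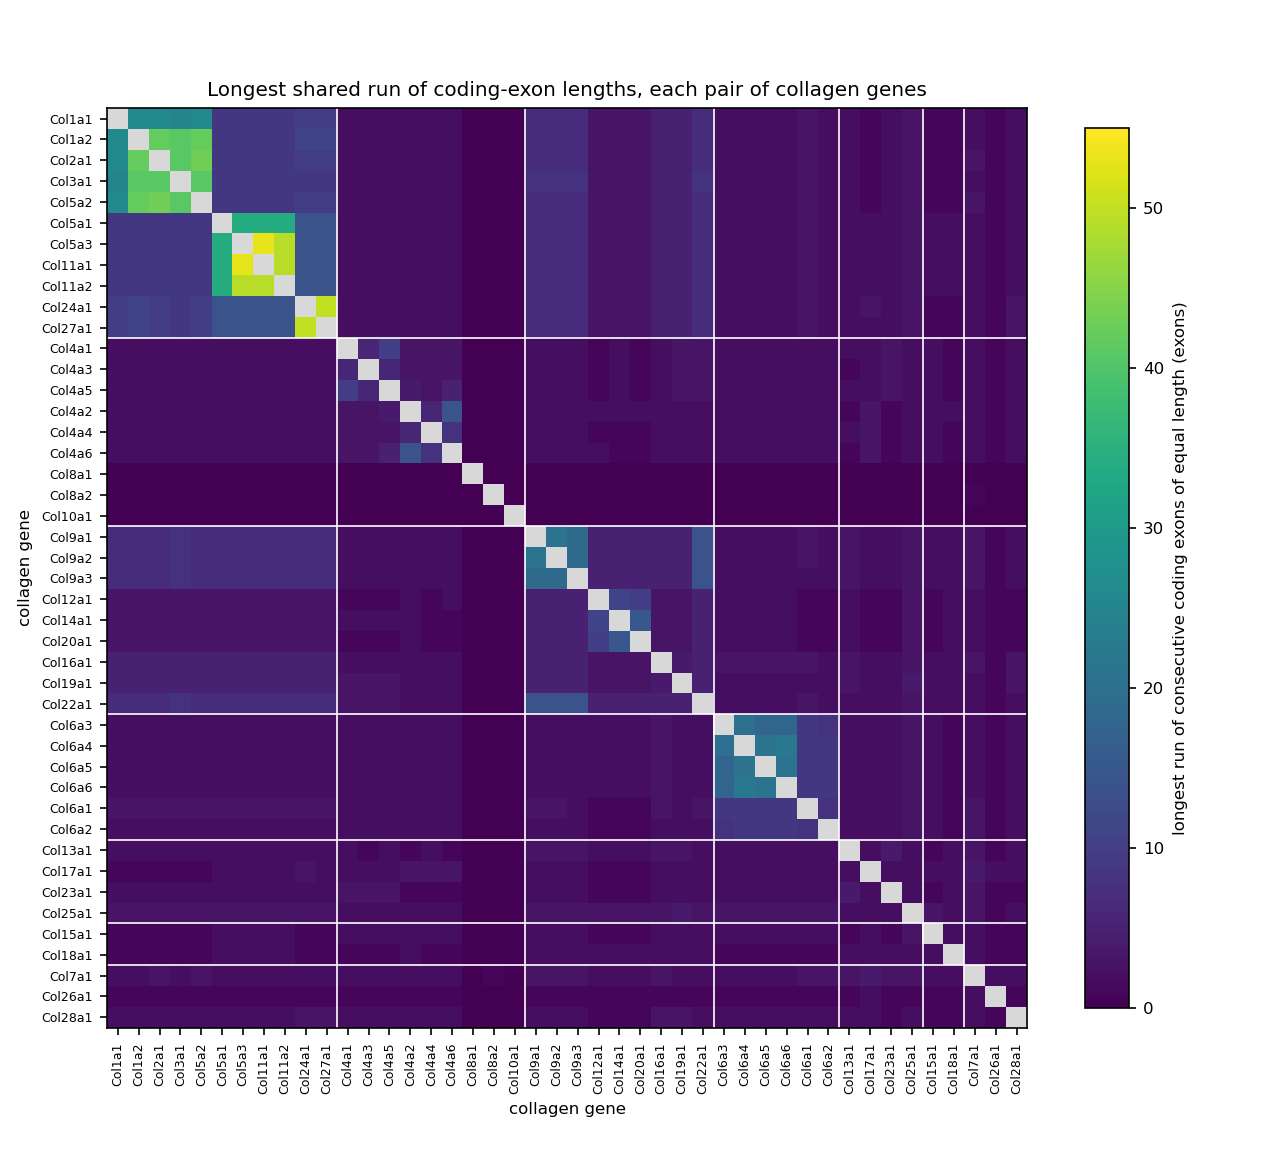
Longest run of consecutive coding exons of equal length for each pair of the 44 collagen genes (colour, number of exons; both axes list the genes by class, white lines separate classes). Bright blocks are the 3 fibrillar groups, with 53 exons in Col5a3 and Col11a1, and fainter blocks the type IV, IX, XII-like and VI groups.

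The collagen genes lay on 15 chromosomes, most on chromosome 1 (7), chromosome 9 (6) and chromosomes 4 and 10 (5 each). In 8 pairs, with 15 genes, no other protein-coding gene stood between. How often genes of other families adjoin was not counted, so this number has no background beside it. All 6 type IV genes were in head-to-head pairs, on opposite strands with their starts facing each other, and each pair joined a gene of the Col4a1, Col4a3 and Col4a5 group to a gene of the Col4a2, Col4a4 and Col4a6 group. Col4a1 (chr8:11198423-11312826, - strand) and Col4a2 (chr8:11312805-11449287, + strand) overlapped by 22 bases at their starts. Col4a4 (chr1:82448423-82586849, - strand) and Col4a3 (chr1:82586921-82722059, + strand) were separated by 71 bases. Col4a6 (chrX:141165403-141474076, - strand) and Col4a5 (chrX:141475385-141689234, + strand) were separated by 1308 bases.

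Head-to-head pairs were counted with a limit of 1000 bases between annotated starts, which the first 2 of these pairs met. That is 4 of 44 collagens (9.09%) with a protein-coding partner. Of all protein-coding genes 10.5% (2276 of 21700) had a protein-coding partner of any family, so the share is near that background. For the 4 collagens the partner was another collagen, and how often genes pair with a member of their own family was not counted. The type IV genes have further textbook partnerships: Col4a1 and Col4a2 encode the chains of the general basement membrane, and Col4a3, Col4a4 and Col4a5 those of the kidney filter. Within type IV, partners on a chromosome differed in length at the 3' end: the 3' UTR was 1378 bases in Col4a1 and 971 in Col4a2, 3175 in Col4a3 and 4708 in Col4a4, and 1110 in Col4a5 and 1315 in Col4a6.

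The other 5 neighbouring pairs were not head-to-head. Col3a1 (chr1:45311538-45349706, + strand) and Col5a2 (chr1:45374321-45503282, - strand) met tail-to-tail with 24614 bases between, and both belong to the group with the shared run of 25 exons. Col9a1 (chr1:24177610-24252684, + strand) and Col19a1 (chr1:24261890-24587472, - strand), both FACIT genes, met tail-to-tail with 9205 bases between. Type VI genes stood in rows on the - strand: Col6a6, Col6a5 and Col6a4 in that order on chromosome 9 with 27917 and 28810 bases between, and Col6a2 and Col6a1 on chromosome 10 with 85161 bases and 1 non-coding gene between. Col18a1, a basement membrane multiplexin, lay 326009 bases beyond Col6a1, with 2 protein-coding genes between. Col6a3 (chromosome 1) was the type VI gene without a neighbour of its type.

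**Figure D5:**
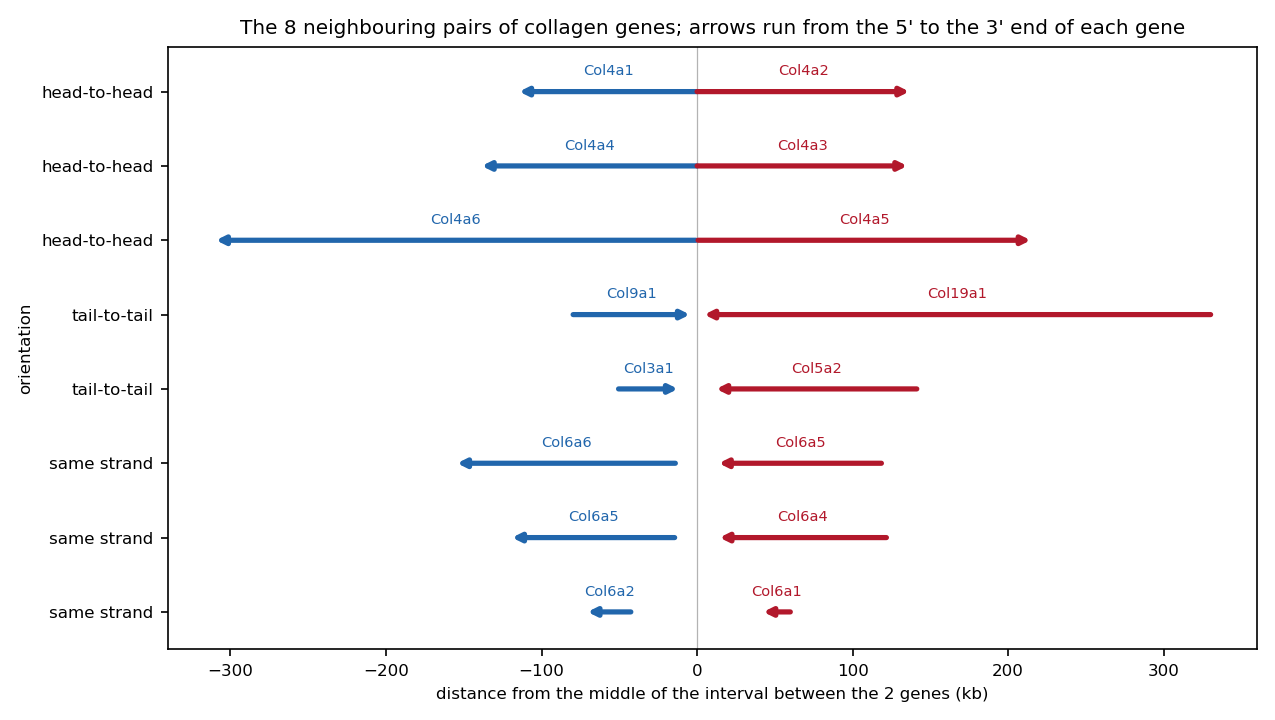
The 8 neighbouring collagen pairs drawn to scale, with the distance in kb from the middle of the interval between the genes (x axis) and the orientation of the pair (y axis); each arrow runs from the 5' to the 3' end of a gene. The 3 type IV pairs start next to each other at 0 kb, and the 3 same-strand pairs are all type VI genes.

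Start regions were read from RefSeq windows of 300 bases, most of them upstream of a start (GRCm38.p6), which held 38 windows for 35 of the 44 genes. Windows were searched on both strands for 3 short motifs, none of which contains another. CCAAT was present in 13 (34.2%) against 37.4% of all 32851 windows, GGGCGG in 23 (60.5%) against 35.7%, and TATAAA in 5 (13.2%) against 13.6%. GGGCGG consists of G and C alone, and the windows were not matched for their G and C content. Its count includes overlapping windows of the same gene, Col6a2. The windows of Col4a1 and Col4a2, which overlap each other, were the richest of the 5 type IV windows in G and C. They had 74.0% and 73.7% against a median of 52.7%, and each held the CCAAT motif as well as the GGGCGG motif. The only GGGCGG match of the Col4a1 window lay inside the 22 bases shared by both annotated genes, and the Col4a2 window holds the same match. The windows of Col4a4, Col4a5 and Col4a6 had 63.3%, 52.7% and 48.3% G and C. Between Col4a6 and Col4a5 each window held 1 match in the stretch between the genes, printed on the + strand with the motif in capitals.
GGGCGG (chrX:141474080-141474108): tggagggggacgGGGCGGggctgcctgct
CCAAT (chrX:141475211-141475239): taagagaagctgCCAATgaacaaacgaga
The first stands 16 bases from the start of Col4a6 and the second 158 bases from the start of Col4a5. These are matches of letters in a window and were not tested for any factor.

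The 3' UTR matters for libraries of 3' chemistry, whose reads lie near the end of transcripts. It could be read for 42 of the 44 collagens and had a median of 1079.5 bases, against 943 over 20791 protein-coding genes. The median interval of the collagens, 877 to 1423 bases, includes the value of all genes. In fibrillar genes the median was 1305, from 438 in Col2a1 to 2498 in Col5a1. In network genes it was 1378, from 971 in Col4a2 to 4708 in Col4a4. In the other classes it was 850, from 185 in Col16a1, a FACIT, to 4185 in Col25a1. The main fibre genes of stroma had 1423 bases (Col1a1), 882 (Col1a2) and 959 (Col3a1). The longest coding transcript of Col6a3 has no stop codon annotated, and its only 3' UTR on another complete transcript was 732 bases. The longest coding transcript of Col18a1 ends at its stop codon, and another transcript carries 1016 bases.

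At the 3' end, taken as the last 500 exonic bases, 0 of 44 collagens shared bases with another gene on the same strand, where 0.963% of all protein-coding genes did. On the opposite strand 3 did, against 7.89% of all protein-coding genes: Col4a3 shared 289 bases with C430014B12Rik, Col9a3 shared 234 with Tcfl5 and Col10a1 shared 18 with Nt5dc1. The transcripts read for Col6a3 and Col18a1 carry no annotated 3' UTR. A longer 3' end of these genes was therefore not examined. Another gene lay wholly inside the span of 8 collagens, against 10.1% of all protein-coding genes. In 0 of the 44 was the inner gene protein-coding, against 2.47%. The collagens span more of the genome than the median gene, as given above.

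Annotated isoforms were counted last. The median collagen had 4 transcripts and 2 coding transcripts, the same as over all protein-coding genes. Counting transcripts of every type, Col16a1 had the most with 13, followed by Col11a2 with 12, Col26a1 with 11 and Col2a1 with 10, and Col10a1 had 1. Of these, 5 were coding in Col16a1 and 2 each in Col26a1 and Col2a1. In the last 2 genes, 7 and 4 transcripts were annotated as retaining an intron. Col4a1 had the most transcripts of the network class with 8, of which 3 were coding. Col11a2, a cartilage fibril chain, had the most coding transcripts, 7.

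Exons that an isoform skips were read next. Among the 19 genes with at least 2 complete coding transcripts, 9 had coding exons that 1 transcript includes and another skips, 22 exons in all, and over all protein-coding genes 30.5% of those with at least 2 such transcripts did. The isoforms of the other 10 collagens differed in some other way. Of the 22 exons, 21 (95.5%) were multiples of 3 and 11 (50.0%) multiples of 9. Among internal exons of all collagens these shares were 86.8% and 63.7%, and among skipped exons of all protein-coding genes 62.8% and 21.2%. Col25a1 had 7 of them and Col13a1 had 4. Col11a2 had 3, of 78, 63 and 180 bases, at coding exons 6 and 8 of their transcripts. In Col2a1 the skipped exon is coding exon 2, of 204 bases (chr15:98000403-98000606). The exception in frame was an exon of 8 bases of Col6a6, coding exon 31.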

How the data were processed

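The deposited file was a gene annotation: GENCODE M23 (Ensembl 98) for GRCm38, per the file headers, with 5 records added by the authors for a reporter. Its 1780460 records give coordinates that count from 1, with an empty score column. It holds 32286 genes, and counts of genes between, inside or overlapping collagens cover these alone. Whether it holds every gene of that release was not checked. The submitters' processing notes name Cell Ranger 6.0.1, Seurat 4.0.3 and R 4.1.0. Aligner settings are not given in the sources used here. Members, classes and gene lists were chosen with earlier results of these data known. Genes named were those in pairs, those at either end of a class in exons, multiples of 9, 3' UTR or transcripts, incomplete models and the list genes highest in multiples of 9.

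Lengths, runs and distances were computed with Python 3.11.15. Codons came from GENCODE M21 transcripts of equal identifier, version and exonic length (44 of 44 collagens). Protein sequences were not used. The functions recovered 500 of 500 made exon structures, UTRs, repeats and runs and 151 of 151 made head-to-head pairs. Wilson intervals (95%) cover counting error only, and exons of a gene family are not independent. Alternatives changed the transcript, exon set, distance limits and transcript types.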

Additional observations from a re-analysis of the deposited data

How the results depend on the processing

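Exon shares of the collagens and their medians of exons and 3' UTR stayed within the intervals of the reported values under each alternative. The background shares left their narrow intervals in 1 alternative, with first and last coding exons included. There multiples of 9 went from 14.3% to 14.5% and exons of 54 bases from 0.725% to 0.672%. The median number of transcripts per collagen went from 4 to 2 with coding transcripts alone and to 1 with basic transcripts alone; fewer transcripts are counted there by construction. Multiples of 9 stayed between 61.6% and 64.3% in all collagens, 82.5% and 84.5% in fibrillar, 45.0% and 47.2% in network and 53.6% and 56.6% in the other classes. Leaving out Col7a1, an alternative added after the data were seen, gave 54.5% in the last. Head-to-head pairs numbered 2 at limits of 300 and 1000 bases and 3 at 5000, and neighbouring pairs went from 8 to 7 where no gene of any type was allowed between. No paired analysis was possible because coordinates of gene models carry no sample. Gene models limit every value: an exon missing from the annotation changes a run, and 3' UTRs end where the annotation ends.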
